A study of Homo sapiens with 16 samples.

Results

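H3K4me1 and H3K4me3 are the mono- and trimethylated forms of the same lysine of histone H3, and their regions in vehicle-treated PC9 cells are compared here as a picture of promoters and enhancers before drug. PC9 is an established line of human lung adenocarcinoma cells whose growth depends on a mutated EGFR. The series asks how loss of PKM2, an isoform of pyruvate kinase, and fatty acid synthesis bear on the response of such cells to osimertinib, a kinase inhibitor of mutated EGFR. Both lists came from unedited cells (genotype label Wild type cell) given DMSO, with 1 library per mark, so no test was possible and no p-value is given. Further lists from the same unedited cells are set beside them. They are KDM1A and H3K9me3 with DMSO, and H3K4me1 and H3K4me3 with Osimertinib, again 1 library each. Not analysed here were 6 RNA samples of cells labelled sgCtrl, sgPKM2#1 or sgPKM2#2 and a pair of IgG controls. The KDM1A and H3K9me3 lists with Osimertinib entered only the count of regions in all lists.

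All regions of both vehicle lists were used, 9761 of H3K4me1 and 11621 of H3K4me3, which is 21382 of the 59617 regions in the 8 lists of the binding assays. A region counted as a promoter region where the authors' annotation placed it within 3 kb of an annotated transcription start, and genes were sorted by which mark had such a region. A promoter region was listed for 2886 genes with H3K4me1 and for 8096 genes with H3K4me3, and 9483 genes had one of either mark. Both marks were listed at 1499 genes (15.8%), H3K4me1 alone at 1387 genes (14.6%) and H3K4me3 alone at 6597 genes (69.6%). The genes with both made up 51.9% of the genes with H3K4me1 and 18.5% of the genes with H3K4me3. The share of 51.9% was 48.8% with equal numbers of the strongest regions, 44.9% in the stronger 50% of each list and 44.5% when any assigned region counted, so which of both marks or H3K4me1 alone was more frequent depended on these choices. Every region was 2 kb wide, the read depth is unknown, and intervals below are exact binomial 95% intervals (Newcombe intervals for differences) that cover counting error only. The threshold of the lists is not stated, so a mark without a listed region cannot be taken as absent, and "alone" means only that the other mark was not listed. The 2 marks of a gene can sit in different cells or on different alleles of the culture, and fewer marked cells cannot be told apart from less mark per cell.

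The cells carried the promoter marks of an epithelial line. Over 19110 protein coding genes, 10% had an H3K4me1 and 37.0% an H3K4me3 promoter region. Of 24 genes of the epithelial surface and its junctions, 14 had an H3K4me1 and 22 an H3K4me3 promoter region. Of 16 fibroblast and endothelial markers, 1 had an H3K4me1 and 0 an H3K4me3 promoter region. Of 16 leukocyte markers, 0 had an H3K4me1 and 3 an H3K4me3 promoter region, among them CD68 and NKG7. NKX2-1 and FOXA2, transcription factor genes of the lung lineage, and VIM, which codes for the mesenchymal filament protein vimentin, had no listed region of either mark.

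Methyl groups are added to this lysine by the SET1 and MLL enzyme complexes. KMT2C and KMT2D lay down much of the monomethyl form at enhancers, and the SET1 complexes bring the trimethyl form to gene starts, where CpG-rich DNA recruits them. H3K4me3 is therefore known from the starts of active or poised genes, and H3K4me1 from enhancers, which are often in introns or between genes, and from the flanks of promoters. KDM1A removes mono- and dimethyl groups, and the KDM5 enzymes remove the trimethyl form.

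The promoter sequences of the strongest genes of each kind are shown first, because DNA composition was one of the features in which the kinds of promoter differed. Each is the window from 250 bases before to 50 bases after a RefSeq start (GRCh38.p14), read 5′ to 3′ along the gene, with CpG dinucleotides in capitals. The genes are the 3 protein coding genes of each kind with the strongest promoter regions whose window lay inside the region. Windows of genes with both marks were AHNAK (chr11:62545777-62546076, minus strand), which codes for a giant scaffold protein under the cell membrane, CEBPB (chr20:50190580-50190879, plus strand), a bZIP transcription factor gene, and FBLN1 (chr22:45502633-45502932, plus strand), which codes for the matrix protein fibulin.
AHNAK: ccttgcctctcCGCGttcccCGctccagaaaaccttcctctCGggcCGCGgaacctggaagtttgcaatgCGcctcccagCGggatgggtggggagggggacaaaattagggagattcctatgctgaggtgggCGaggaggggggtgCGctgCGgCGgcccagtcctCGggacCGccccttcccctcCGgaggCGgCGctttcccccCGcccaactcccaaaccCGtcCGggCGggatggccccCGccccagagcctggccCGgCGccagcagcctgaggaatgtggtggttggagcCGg
CEBPB: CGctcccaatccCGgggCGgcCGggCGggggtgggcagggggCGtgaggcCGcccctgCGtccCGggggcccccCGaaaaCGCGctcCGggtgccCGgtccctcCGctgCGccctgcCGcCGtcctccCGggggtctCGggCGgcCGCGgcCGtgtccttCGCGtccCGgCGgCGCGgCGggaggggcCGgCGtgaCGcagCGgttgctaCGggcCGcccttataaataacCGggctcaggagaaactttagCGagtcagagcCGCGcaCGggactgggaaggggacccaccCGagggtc
FBLN1: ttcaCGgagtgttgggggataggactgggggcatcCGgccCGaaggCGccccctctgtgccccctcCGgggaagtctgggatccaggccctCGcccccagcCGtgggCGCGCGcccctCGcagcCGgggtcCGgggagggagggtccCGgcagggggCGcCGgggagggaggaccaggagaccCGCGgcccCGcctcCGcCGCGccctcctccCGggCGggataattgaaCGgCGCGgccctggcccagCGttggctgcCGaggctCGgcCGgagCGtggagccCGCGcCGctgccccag
Their observed to expected CpG ratios were 0.680, 0.978 and 0.768. The AHNAK start lay under a region of both marks, while the CEBPB and FBLN1 starts lay under H3K4me3 and their H3K4me1 regions lay elsewhere near a start of the gene.

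Windows of genes with H3K4me1 alone were RASSF5 (chr1:206507281-206507580, plus strand), which codes for a RAS-binding protein, SLC9A8 (chr20:49812578-49812877, plus strand), a sodium and proton exchanger gene, and COL16A1 (chr1:31703968-31704267, minus strand), a collagen gene.
RASSF5: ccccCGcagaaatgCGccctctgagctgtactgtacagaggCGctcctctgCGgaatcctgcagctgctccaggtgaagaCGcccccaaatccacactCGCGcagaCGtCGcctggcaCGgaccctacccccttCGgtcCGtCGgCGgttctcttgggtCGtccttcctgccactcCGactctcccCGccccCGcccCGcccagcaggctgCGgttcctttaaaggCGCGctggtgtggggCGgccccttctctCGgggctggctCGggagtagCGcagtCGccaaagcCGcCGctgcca
SLC9A8: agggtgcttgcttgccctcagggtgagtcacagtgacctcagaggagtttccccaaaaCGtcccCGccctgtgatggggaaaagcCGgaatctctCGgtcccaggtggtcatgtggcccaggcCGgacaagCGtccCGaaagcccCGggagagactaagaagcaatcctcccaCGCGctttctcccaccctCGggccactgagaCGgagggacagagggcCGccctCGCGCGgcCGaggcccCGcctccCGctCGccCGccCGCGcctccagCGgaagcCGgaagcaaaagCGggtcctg
COL16A1: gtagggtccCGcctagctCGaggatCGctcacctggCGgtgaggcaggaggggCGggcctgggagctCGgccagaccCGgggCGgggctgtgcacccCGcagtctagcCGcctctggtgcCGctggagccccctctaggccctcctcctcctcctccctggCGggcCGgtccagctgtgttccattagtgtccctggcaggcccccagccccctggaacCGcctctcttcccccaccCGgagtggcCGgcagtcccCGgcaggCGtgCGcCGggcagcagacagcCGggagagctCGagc
Their CpG ratios were 0.853, 0.768 and 0.542. These strongest examples are richer in CpG than the median start under H3K4me1 alone, which is given further below. The SLC9A8 window holds 1 match to TGANTCA, the letters bound by AP-1 factors.

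Windows of genes with H3K4me3 alone were INHBB (chr2:120345886-120346185, plus strand), which codes for a subunit of activins and inhibins, CBX3 (chr7:26201193-26201492, plus strand), which codes for the chromatin protein HP1 gamma, and MYADM (chr19:53866121-53866420, plus strand), a membrane protein gene.
INHBB: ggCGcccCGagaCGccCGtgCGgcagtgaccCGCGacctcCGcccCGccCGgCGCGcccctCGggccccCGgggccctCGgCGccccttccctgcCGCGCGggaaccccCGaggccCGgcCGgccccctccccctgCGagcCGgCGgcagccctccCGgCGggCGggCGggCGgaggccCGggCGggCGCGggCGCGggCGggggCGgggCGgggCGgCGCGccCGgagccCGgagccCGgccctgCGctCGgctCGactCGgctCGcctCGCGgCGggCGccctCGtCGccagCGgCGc
CBX3: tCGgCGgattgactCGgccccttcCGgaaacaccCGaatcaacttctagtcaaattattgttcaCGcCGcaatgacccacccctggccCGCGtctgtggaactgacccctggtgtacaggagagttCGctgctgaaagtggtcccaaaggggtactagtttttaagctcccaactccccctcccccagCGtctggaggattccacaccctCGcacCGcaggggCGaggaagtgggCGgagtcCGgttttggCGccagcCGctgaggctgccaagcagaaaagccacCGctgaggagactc
MYADM: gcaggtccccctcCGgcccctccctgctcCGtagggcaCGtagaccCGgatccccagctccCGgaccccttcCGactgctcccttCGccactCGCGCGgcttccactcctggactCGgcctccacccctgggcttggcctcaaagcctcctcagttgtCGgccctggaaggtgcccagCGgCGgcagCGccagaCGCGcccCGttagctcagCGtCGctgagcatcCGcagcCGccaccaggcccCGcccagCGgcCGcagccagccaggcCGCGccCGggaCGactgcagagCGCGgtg
Their CpG ratios were 0.986, 0.708 and 0.798, and the INHBB window was 88.7% G and C.

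H3K4me3 regions lay mostly at promoters and H3K4me1 regions were spread over promoters, introns and intergenic DNA. Promoter regions made up 44.0% of H3K4me1 regions (43.0 to 45.0) and 90.5% of H3K4me3 regions (89.9 to 91.0), a difference of -46.5 percentage points (-47.6 to -45.3). The difference lay within 1 kb of a start, where 30.1% of H3K4me1 and 77.8% of H3K4me3 regions were found. The next class, at 1 to 2 kb, held 7.66% of H3K4me1 and 7.84% of H3K4me3 regions and did not differ beyond counting error (-0.893 to 0.546 points). At 2 to 3 kb the shares were 6.25% of H3K4me1 and 4.83% of H3K4me3 regions. Introns held 28.8% of H3K4me1 and 3.15% of H3K4me3 regions, and distal intergenic DNA held 20.6% of H3K4me1 and 3.99% of H3K4me3 regions. The promoter share also followed signal rank in the H3K4me3 list, since 99.0% of its strongest 10% and 70.4% of its weakest 10% were promoter regions. In the H3K4me1 list the strongest 10% had a promoter share of 35.9%, the lowest of the 10 groups by rank, and the highest was 48.7%.

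**Figure D1:**
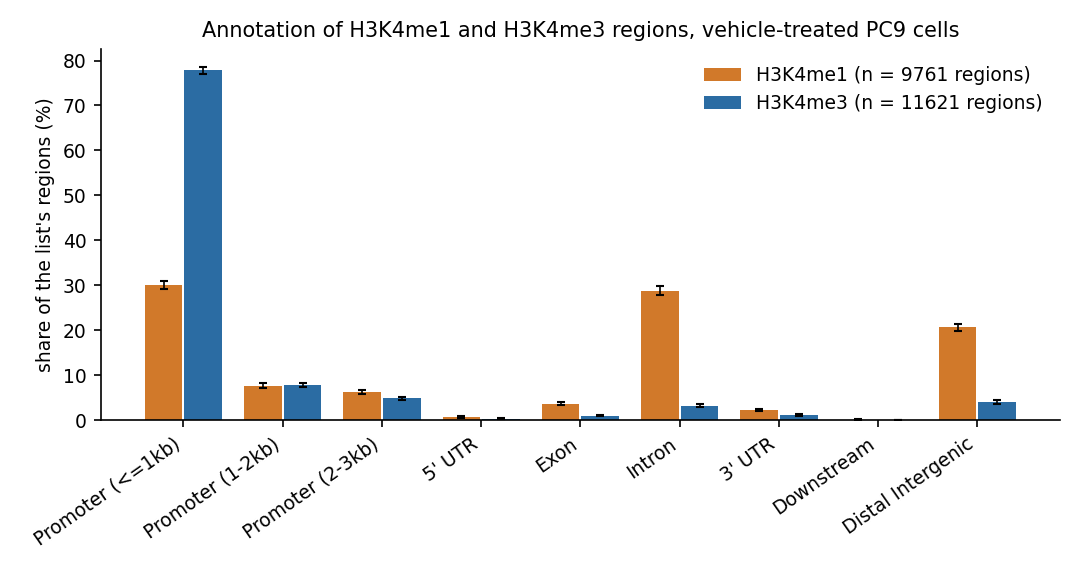
Share of regions in each annotation class (percent of the list) for H3K4me1 (orange, 9761 regions) and H3K4me3 (blue, 11621 regions), with exact binomial 95% intervals as bars. Within 1 kb of a start H3K4me1 stands at 30.1% and H3K4me3 at 77.8%, and H3K4me1 is the higher of the marks in introns and intergenic DNA.

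Few sites carried both marks. An H3K4me3 region overlapped 1636 H3K4me1 regions, or 16.8% (16.0 to 17.5), and an H3K4me1 region overlapped 1658 H3K4me3 regions, or 14.3% (13.6 to 14.9). Of the regions, 67.0% of H3K4me1 and 69.8% of H3K4me3 lay over 10 kb from the nearest region of the other mark. Shared sites were mostly promoters: 83.9% of the overlapping H3K4me1 regions were promoter regions, against 36.0% of the H3K4me1 regions without overlap.

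The lists differed in where they overlapped. Of H3K4me1 promoter regions, 31.9% (30.5 to 33.3) overlapped H3K4me3, while 3.95% of intronic and 5.52% of distal intergenic H3K4me1 regions did. H3K4me3 regions ran the other way, since 13.4% of promoter regions (12.8 to 14.1) and 22.5% of the 1105 regions outside promoters (20.1 to 25.1) overlapped H3K4me1. Those H3K4me3 regions outside promoters were weak, with a median signal percentile of 19.4 within the list, against 53.6 for the promoter regions. A percentile here is the share of the same list at or below that signal, and signals were not compared between lists because their scale is not stated. Of 10 equal groups by rank, the strongest H3K4me3 regions overlapped H3K4me1 in 25.7% (23.2 to 28.3), and the other groups in 11.3% to 15.1%. Among H3K4me1 regions the shares ran from 10.3% in the weakest group to 22.0% in the group after the strongest, which had 15.5%.

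The overlap at gene starts was also measured without gene assignments, at 34789 RefSeq starts off chromosome Y. Regions of both marks covered 595 starts, H3K4me1 alone covered 552, H3K4me3 alone covered 7957 and neither covered 25685. H3K4me1 covered 6.96% of the starts under an H3K4me3 region (6.43 to 7.52) and 2.10% of the other starts (1.93 to 2.28). Starts of long noncoding RNA genes under H3K4me1 carried H3K4me3 in 34.3% (29.1 to 39.8), and those of protein coding genes in 58.5% (55.1 to 61.9). H3K4me3 covered 10.7% of all starts of long noncoding RNA genes and 32.7% of all starts of protein coding genes.

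H3K4me1 was most frequent at the start itself and not beside it, also where H3K4me3 was present. Over all starts H3K4me1 covered 3.30% at the start, 2.51% at 1000 bp upstream and 2.82% at 1000 bp downstream. Over the 8552 starts under H3K4me3 it covered 6.96% at the start, 4.67% at 1000 bp upstream and 5.43% at 1000 bp downstream. At 2000 bp it covered 2.84% of those starts upstream and 3.09% downstream, and at 10000 bp 2.26% and 2.43%. H3K4me3 covered 24.6% of starts at the start and was highest, at 24.7%, 100 bp downstream. Windows of 2 kb blur finer positions, so a dip narrower than a window could not be seen.

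**Figure D2:**
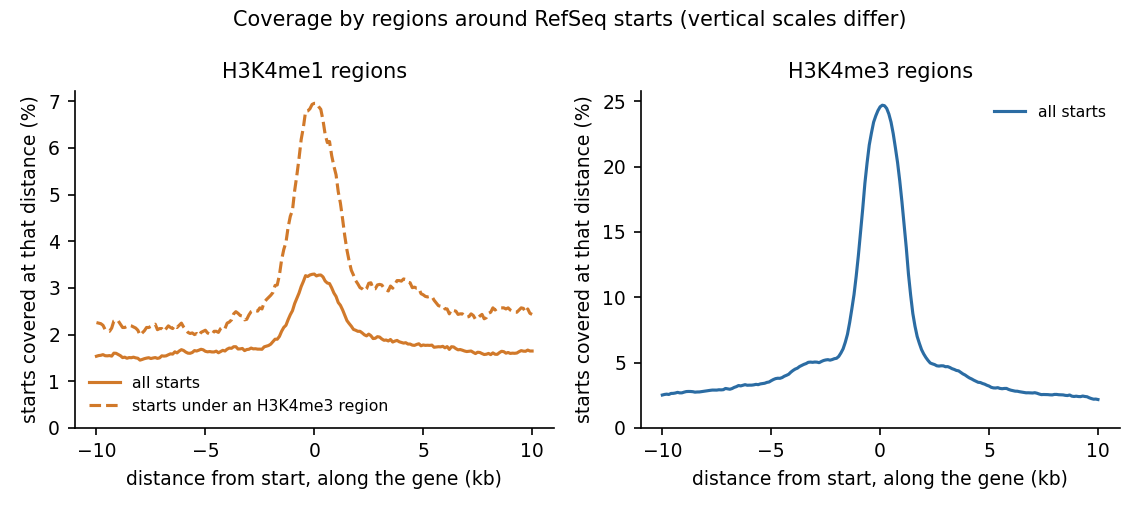
Percent of RefSeq starts covered by an H3K4me1 region (left) or an H3K4me3 region (right) at each distance along the gene in kb, in steps of 100 bp, over 34789 starts (solid) and the 8552 starts under H3K4me3 (dashed). H3K4me1 peaks at the start, at 3.30% of starts and 6.96% of those under H3K4me3, and H3K4me3 reaches 24.7% just downstream of it.

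Relative to the start that the authors assigned, 46.6% of H3K4me1 promoter regions (45.1 to 48.1) and 73.7% of H3K4me3 promoter regions (72.8 to 74.5) covered it. H3K4me1 regions that missed the start numbered 1041 upstream and 1253 downstream, and H3K4me3 regions that missed it numbered 1168 upstream and 1600 downstream. The median distance of a region's centre from the start was 1132 bp for H3K4me1 and 558 bp for H3K4me3.

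Starts under H3K4me1 alone were poorer in CpG than starts under H3K4me3, and starts under both marks resembled those under H3K4me3 alone. The CpG ratio compares the CpG dinucleotides in a window with the number expected from its C and G content. Its median was 0.861 (0.843 to 0.879) at starts under both marks, 0.485 (0.406 to 0.545) under H3K4me1 alone, 0.869 (0.865 to 0.873) under H3K4me3 alone, 0.369 under neither and 0.578 over all starts. The median G and C content was 68.7% under both marks, 61.0% under H3K4me1 alone, 67.0% under H3K4me3 alone and 58.7% over all starts. Windows with a ratio of at least 0.6 and at least 50% G and C made up 84.7% of starts under both marks (81.6 to 87.5), 41.3% under H3K4me1 alone (37.2 to 45.5) and 88.1% under H3K4me3 alone (87.3 to 88.8). Such windows made up 33.3% of starts under neither mark and 46.9% of all starts. Part of the gap between H3K4me1 alone and H3K4me3 alone went with gene type. Among starts of protein coding genes the median ratio was 0.862 under both marks, 0.656 (0.562 to 0.731) under H3K4me1 alone and 0.870 under H3K4me3 alone. It was 0.567 under neither mark and 0.737 over all starts of protein coding genes. The distribution under H3K4me1 alone had a low group, with 14.3% of starts at a ratio of 0.1 to 0.2, and a high group, with 10.7% at 0.9 to 1.0. Matched by gene symbol, a RefSeq window was found for only 72.5% of the 582 protein coding genes with H3K4me1 alone, so the comparison by gene is void and the one by start is given.

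**Figure D3:**
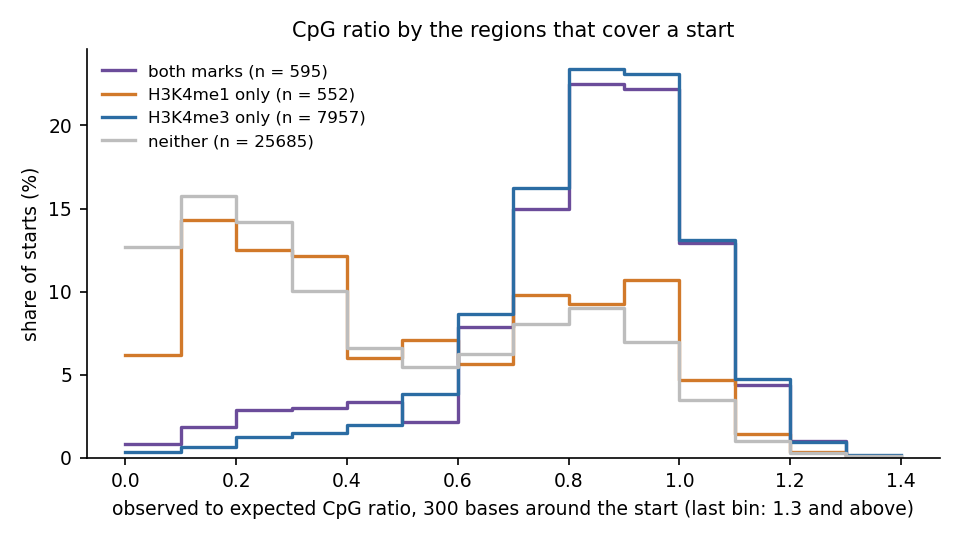
Distribution of the observed to expected CpG ratio in 300 bases around RefSeq starts, as percent of starts per bin, for starts under both marks (595), H3K4me1 alone (552), H3K4me3 alone (7957) and neither mark (25685). Starts under both marks and under H3K4me3 alone peak between 0.8 and 1.0, while those under H3K4me1 alone have a low and a high group.

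Short sequence motifs were counted in the same windows on both strands. TGANTCA, the letters that AP-1 factors bind, was found in 4.20% of starts under both marks (2.74 to 6.14), 12.0% under H3K4me1 alone (9.37 to 15), 3.52% under H3K4me3 alone (3.12 to 3.95) and 7.69% of all starts. Starts without either mark held it in 8.97% (8.63 to 9.33), so the interval of starts under H3K4me1 alone lay just above theirs. Among starts of protein coding genes the shares were 10.4% under H3K4me1 alone (7.42 to 14.2) and 7.37% under neither (6.95 to 7.81), with intervals that overlap. TATAAA, the TATA box letters, was found in 4.54% under both marks, 8.15% under H3K4me1 alone, 3.77% under H3K4me3 alone and 11.6% of all starts. GGGCGG, the letters bound by SP1, was found in 76.5% under both marks, 48.7% under H3K4me1 alone, 75.2% under H3K4me3 alone and 44.9% of all starts. CACGTG, the E-box letters of MYC and USF factors, was found in 12.8% under both marks (10.2 to 15.7), 7.79% under H3K4me1 alone (5.69 to 10.3), 10.2% under H3K4me3 alone (9.54 to 10.9) and 7.24% of all starts. CCAAT, bound by NF-Y, was at 34.5% under both marks, 32.1% under H3K4me1 alone, 34.8% under H3K4me3 alone and 34.6% of all starts and so did not follow the marks. GGAAGT, an ETS site, was at 24.0% under both marks, 23.6% under H3K4me1 alone, 27.8% under H3K4me3 alone and 22.8% of all starts. GGGCGG contains a CpG and CACGTG does too, so their counts move with the CpG content of the windows.

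Genes with both marks were mostly protein coding genes with strong H3K4me3. Protein coding genes made up 89.5% of them (87.9 to 91.0), 42.0% of genes with H3K4me1 alone (39.3 to 44.6) and 87.5% of genes with H3K4me3 alone (86.7 to 88.3). The H3K4me1 signal of the strongest promoter region had a median percentile of 54.1 at genes with both marks and 44.6 at genes with H3K4me1 alone. The H3K4me3 signal had a median percentile of 74.7 at genes with both and 59.1 at genes with H3K4me3 alone. Across the 1499 genes with both, the percentiles of the marks were weakly related (Spearman's rank correlation 0.217, across genes, which are not replicates and share both libraries).

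At most of these genes the marks sat at the same site. For 1104 of the 1499 genes (73.6%) a promoter region of H3K4me1 overlapped an H3K4me3 region, and for 164 genes (10.9%) the nearest H3K4me3 region lay over 10 kb away. Measured from the strongest H3K4me3 promoter region to the nearest H3K4me1 promoter region of the same gene, 943 pairs overlapped (62.9%) and 424 had centres within 500 bp of each other (28.3%). Where the pair did not overlap, H3K4me1 lay downstream along the gene at 435 genes and upstream at 121. Only promoter regions of the same gene were paired, and other annotated starts of a gene can lie inside it. The pairing can therefore itself favour the downstream side, and its part in these counts was not tested. The profiles around starts, which do not rest on gene assignment, were also somewhat higher downstream. At starts under H3K4me3, H3K4me1 covered 2.42% at 3000 bp upstream and 3.08% at 3000 bp downstream. Over all starts the shares at these distances were 1.68% and 1.95%.

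The 6 strongest genes with both marks were PARD6B, KRT7, MYH9, TNFAIP2, AOPEP and AHNAK, ordered by the lower of their ranks. PARD6B codes for a cell polarity protein, and its regions (H3K4me1 at chromosome 20, 50730974 to 50732973, rank 97 of 9761, and H3K4me3 at 50731059 to 50733058, rank 50 of 11621) shared 1915 bp. KRT7 codes for a keratin of simple epithelia, with H3K4me1 at rank 115 and H3K4me3 at rank 31. MYH9 codes for the heavy chain of nonmuscle myosin, with H3K4me1 at rank 65 and H3K4me3 at rank 118. Of these 6 genes, PARD6B alone had its strongest regions of the marks in the same place. The strongest pair of KRT7 lay 7317 bp apart, that of MYH9 16652 bp, and that of AOPEP, an aminopeptidase gene, 84426 bp. Each of those 3 also had a weaker pair that overlapped, by 1949, 1734 and 1225 bp.

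Genes with H3K4me1 alone were a mixed group, with larger shares of noncoding genes than the kinds with H3K4me3. Long noncoding RNA genes made up 3.0% of genes with both marks, 12.7% of genes with H3K4me1 alone (11 to 14.6) and 3.56% of genes with H3K4me3 alone. Pseudogenes made up 1.67% of genes with both, 13.2% of genes with H3K4me1 alone and 2.43% of genes with H3K4me3 alone, and 27.5% of the genes with H3K4me1 alone had no gene type in the tables used. MicroRNA genes made up 0.734% of genes with both, 3.6% of genes with H3K4me1 alone and 0.621% of genes with H3K4me3 alone. Counted by RefSeq start, H3K4me1 alone was about as frequent at both types of gene. It covered 1.62% of the starts of long noncoding RNA genes and 1.57% of those of protein coding genes. H3K4me3 alone covered 9.81% and 30.5% of these starts. The region of genes with H3K4me1 alone covered the assigned start in 41.7%, against 56.7% of the H3K4me1 regions of genes with both. H3K4me3 was far from most of them: at 78.9% of these genes the nearest H3K4me3 region lay over 10 kb away, and at 54 genes (3.89%) an H3K4me3 region overlapped that did not count as a promoter region of the gene.

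The 6 strongest genes with H3K4me1 alone were the noncoding genes LINC01270 (rank 59), LINC02288 (rank 117), MIR23B (rank 138), LINC02874 (rank 148), MIR4669 (rank 173) and RN7SL704P (rank 199). No protein coding gene was among them. The LINC01270 region (chromosome 20, 50309589 to 50311588) covered its start, and the gene had 9 H3K4me1 regions in all and 0 of H3K4me3. MIR23B, a microRNA gene that lies inside the AOPEP gene on chromosome 9, had its region at -700 bp, and the nearest H3K4me3 region lay 75716 bp away. Some lay closer to an H3K4me3 region of another gene, 2217 bp away at LINC02288 and 5189 bp away at LINC01270.

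Genes with H3K4me3 alone were the large majority, and their strongest regions belonged to genes of varied function. TNRC18 (rank 6 of 11621), INHBB (rank 10), CBX3 (rank 11), ADM (rank 12), MYADM (rank 14) and IER2 (rank 15) led them. ADM codes for the peptide hormone adrenomedullin and IER2 for an immediate early nuclear protein. At 5 of the 6 the nearest H3K4me1 region was over 10 kb away, from 10406 bp at IER2 to 319185 bp at MYADM. INHBB had 5 H3K4me1 regions outside its promoter, the nearest 2367 bp from its H3K4me3 promoter region.

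Lists of genes with a shared role fell into the kinds unevenly. The measure for comparison is the protein coding genes matched by symbol, of which 7649 had a promoter region of either mark: 17.4% both marks, 7.56% H3K4me1 alone and 75% H3K4me3 alone. The lists were drawn up with earlier results of these data known, and no list was tested. They also differed in H3K4me3 strength, and strength went with H3K4me1: of protein coding genes with H3K4me3, H3K4me1 was present at 11.9% in the weaker 50% of the list (10.7 to 13.3), 18.6% between percentiles 50 and 90 and 35.4% in the strongest 10% (32.5 to 38.3).

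**Figure D4:**
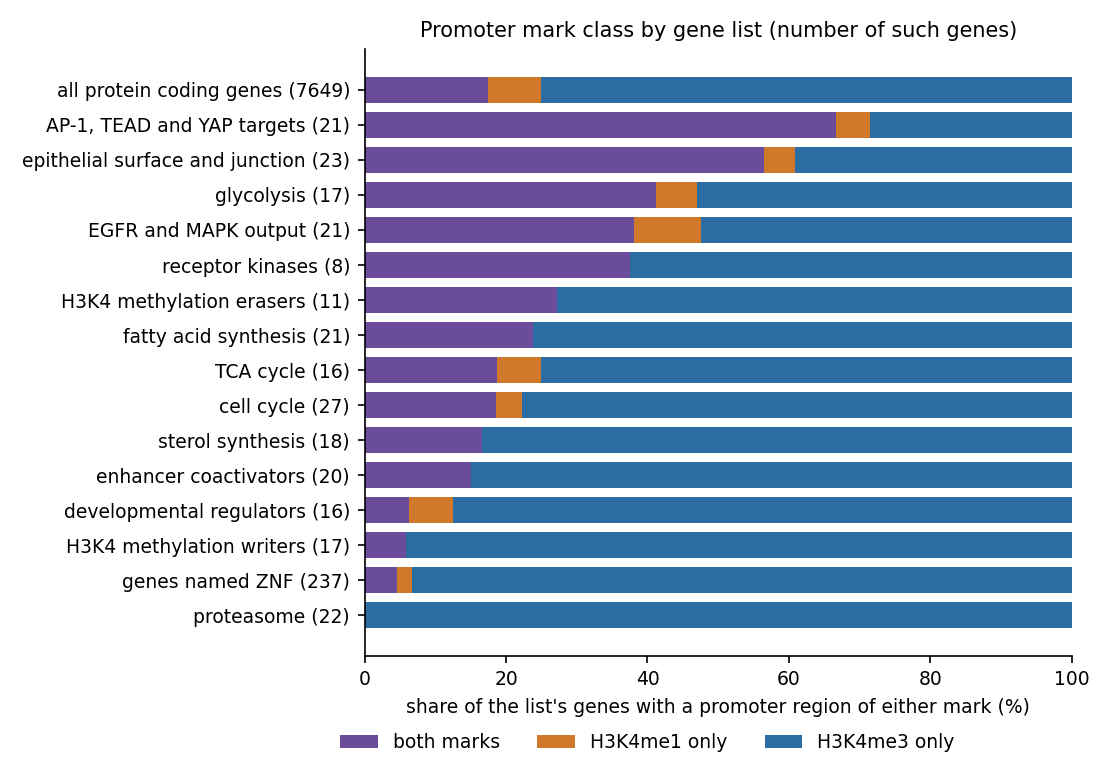
Share of each gene list's genes with a promoter region of either mark (number in brackets) that had both marks (purple), H3K4me1 alone (orange) or H3K4me3 alone (blue), in percent, for lists with at least 8 such genes, below all protein coding genes. AP-1, TEAD and YAP targets and epithelial genes have the largest shares with both marks among these lists, and proteasome genes have 0.

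Genes of AP-1 factors, TEAD and YAP, which read out growth factor and cell contact signals, had both marks at 14 of 21 genes (66.7%, 43.0 to 85.4). AMOTL2, which codes for an angiomotin that binds YAP, had H3K4me1 at rank 185 and H3K4me3 at rank 13. CRIM1, a transmembrane protein gene, had H3K4me1 at rank 243 and H3K4me3 at rank 48. FOSL2, an AP-1 gene, had H3K4me1 at rank 1610 and H3K4me3 at rank 19, in regions that shared 23 bp. CCN1, a secreted matrix protein gene and YAP target, had H3K4me1 at rank 2120 and H3K4me3 at rank 206, in regions that shared 1574 bp. The AP-1 genes JUND, JUNB and JUN had H3K4me3 alone, at ranks 114, 139 and 705, and BATF had H3K4me1 alone, at rank 2586. Of the 12 genes of the list in the strongest 10% of H3K4me3 regions, 9 had both marks (75%), beside 35.4% of all protein coding genes of that strength.

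Epithelial genes had both marks at 13 of 23 genes (56.5%, 34.5 to 76.8). ELF3, an epithelial ETS factor gene, had H3K4me1 at rank 599 (chromosome 1, 202012171 to 202014170) and H3K4me3 at rank 3 (202010916 to 202012915). The regions shared 745 bp and each covered an annotated start. KRT8 and KRT19, keratin genes of simple epithelia, had H3K4me1 at ranks 587 and 577 and H3K4me3 at ranks 5 and 46. ESRP1 and ESRP2, which code for epithelial splicing regulators, and DSP, which codes for desmoplakin of cell junctions, had H3K4me3 alone at ranks from 323 to 680. CLDN7, a claudin gene, was the exception with H3K4me1 alone, at rank 8382. Of the 14 epithelial genes in the strongest 10% of H3K4me3 regions, 9 had both marks (64.3%).

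Genes that EGFR and MAPK signalling turn on had both marks at 8 of 21 (38.1%, 18.1 to 61.6). FOSL1 and FOS, AP-1 genes, had H3K4me1 at ranks 1987 and 2945 and H3K4me3 at ranks 2234 and 2383. VEGFA and TGFA, growth factor genes, had H3K4me1 at ranks 2880 and 3626 and H3K4me3 at ranks 647 and 1671. The feedback genes DUSP5, DUSP6 and SPRY2, the cyclin gene CCND1 and the early response gene EGR1 had H3K4me3 alone. LIF, a cytokine gene, and ETV4, an ETS factor gene, had H3K4me1 alone, at ranks 1085 and 2394. Among receptor kinase genes EGFR, ERBB2 and EPHA2 had both marks, of 8 genes with either.

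Glycolysis genes had both marks at 7 of 17 (41.2%, 18.4 to 67.1). GAPDH had H3K4me1 at rank 2715 and H3K4me3 at rank 332, in chromosome 12 regions that shared 1811 bp and each covered an annotated start. ENO1 had H3K4me1 at rank 2712 and H3K4me3 at rank 540, in regions that shared 1328 bp. SLC2A1, a glucose transporter gene, had H3K4me1 at rank 181 and H3K4me3 at rank 579, and its closest promoter regions of the marks lay 5740 bp apart. HK2, which codes for hexokinase, had H3K4me1 alone, at rank 3341. PKM, the gene of pyruvate kinase, had a weak H3K4me1 promoter region (chromosome 15, 72221637 to 72223636, rank 9042) and a strong H3K4me3 promoter region (72229558 to 72231557, rank 313), 5921 bp apart. A second, weaker H3K4me3 promoter region of PKM, at rank 6439, lay 1762 bp from the H3K4me1 region.

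Lipid and central carbon genes mostly had H3K4me3 alone, as did protein coding genes in general. Fatty acid synthesis genes had both marks at 5 of 21 (23.8%, 8.22 to 47.2), H3K4me1 alone at 0 and H3K4me3 alone at 16. FASN, ELOVL6, SCD and FADS2, genes of a synthase, an elongase and desaturases, had H3K4me3 alone at ranks from 560 to 1067, and SCD had 2 H3K4me1 regions outside its promoter. ACACA, which codes for acetyl-CoA carboxylase, had H3K4me3 alone at rank 5579, with the nearest H3K4me1 region 434066 bp away. SREBF1, which codes for a transcription factor of lipid synthesis, stood apart from them, with 5 H3K4me1 promoter regions, the strongest at rank 596, and 2 weak H3K4me3 promoter regions, the stronger at rank 6625. Sterol synthesis genes had both marks at 3 of 18 and TCA cycle genes at 3 of 16.

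Proteasome genes had both marks at 0 of 22 (0 to 15.4%), H3K4me1 alone at 0 and H3K4me3 alone at 22. Another 9 of the 31 proteasome genes had no listed promoter region of either mark. Genes whose symbols begin with ZNF, mostly zinc finger genes, had both marks at 11 of 237 (4.64%, 2.34 to 8.15), H3K4me1 alone at 5 and H3K4me3 alone at 221. Their median H3K4me3 percentile was 60.5, and in the strongest 10% of H3K4me3 regions 4 of 18 had H3K4me1. Writers of H3K4 methylation had both marks at 1 of 17, SMYD2, while KMT2C and KMT2D, the main monomethyl writers, had H3K4me3 alone at ranks 300 and 204. Genes of erasers and of proteins that work with them had both marks at 3 of 11, RCOR1, RCOR2 and KDM2B. The eraser genes KDM1A (rank 2125), KDM5A, KDM5B and KDM5C had H3K4me3 alone. Enhancer coactivator genes had both marks at 3 of 20, among them ARID1A and NCOA3, and EP300, which codes for a histone acetyltransferase, had H3K4me3 alone at rank 406. Cell cycle genes had both marks at 5 of 27 (18.5%), beside the 17.4% of all protein coding genes. In the strongest 10% of H3K4me3 regions, where 35.4% of protein coding genes had H3K4me1, both marks were listed at 0 of 7 cell cycle genes, 0 of 6 writers, 0 of 4 sterol synthesis genes, 0 of 2 proteasome genes, 2 of 11 enhancer coactivator genes, 2 of 6 fatty acid synthesis genes, 4 of 6 EGFR and MAPK output genes and 6 of 7 glycolysis genes. These counts are small.

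Genes of other lineages showed H3K4me1 without H3K4me3 in a few cases. For comparison, 10% of 19110 protein coding genes had an H3K4me1 and 37.0% an H3K4me3 promoter region, and 11461 had neither. Of 12 squamous and basal genes, 4 had a promoter region of H3K4me1 and 0 of H3K4me3: the keratin genes KRT6A (rank 2381) and KRT6B (rank 7128), PKP1 (rank 3225), which codes for plakophilin, and S100A2 (rank 6267). Of these, the PKP1 region covered an annotated start and that of KRT6A lay at -1302 bp, upstream of its start. Among mesenchymal genes SNAI1, a factor of the epithelial to mesenchymal transition, and SPARC, a matrix protein gene, had H3K4me1 alone at ranks 1431 and 2810. Among 6 lung lineage genes with either mark, CAV1 had both marks, SCGB1A1 had H3K4me1 alone and 4, led by FOXA1 at rank 653, had H3K4me3 alone. In the list named neuroendocrine, 9 of 10 genes had no promoter region of either mark. The remaining gene, POU2F3, had H3K4me1 alone and is not itself a neuroendocrine marker. Among hepatocyte and intestine genes LGALS4 had H3K4me1 alone, the single gene of its list with either mark. Among developmental regulators, genes often poised in stem cells, 1 of 16 had both marks (SOX9), 1 had H3K4me1 alone (HOXC8) and 14 had H3K4me3 alone, and 55 of the 71 genes had no promoter region of either mark.

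EGFR, the driver gene of this line, showed both marks in separate places. Its H3K4me3 promoter region covered the start (chromosome 7, 55018893 to 55020892) and ranked 23 of 11621. H3K4me1 was listed in 19 regions assigned to EGFR over 142 kb, of which 13 were in introns, 4 were upstream, 1 was in an exon and 1 was a promoter region. Of the 19, 11 were in the strongest 10% of the H3K4me1 list. The strongest (55053712 to 55055711, intron 1, rank 50 of 9761) lay 34561 bp from the start, and 2 of the 19 overlapped an H3K4me3 region. The H3K4me1 promoter region (55107345 to 55109344, rank 420) lay at -379 bp from the start of another annotated transcript and 86452 bp from the H3K4me3 promoter region, so EGFR counts as a gene with both marks through an internal start.

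MYC, a growth-promoting transcription factor gene, had a strong H3K4me3 promoter region (rank 55) flanked by H3K4me1 on both sides. Its H3K4me1 promoter regions ranked 6584 at the start and 4704 at 1334 bp downstream, and shared 6 and 593 bp with the H3K4me3 region. Another 4 H3K4me1 regions assigned to MYC lay outside its promoter, the strongest at rank 1045.

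Genes with H3K4me1 regions in introns or nearby intergenic DNA more often had H3K4me3 at the promoter. H3K4me1 outside promoters was assigned to 34.8% of genes with both marks (32.3 to 37.2), 36.0% of genes with H3K4me1 alone (33.5 to 38.6) and 5.35% of genes with H3K4me3 alone (4.82 to 5.92). Of 19110 protein coding genes, those with 0, 1, 2 to 4 and 5 or more such regions had an H3K4me3 promoter region in 35.3%, 55.2%, 64.1% and 81.4%. An H3K4me1 promoter region was listed in 7.06%, 38.7%, 63.0% and 83.3% of the same genes. Gene length moved with the number of regions, from a median of 24104 bp with 0 to 123714 bp with 5 or more. Among the shorter 50% of genes, 54.6% of those with such a region (49.5 to 59.7) and 32.7% of those without (31.8 to 33.7) had H3K4me3, and among the longer 50% 63.6% (60.3 to 66.7) and 38.0% (37.0 to 39.0).

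**Figure D5:**
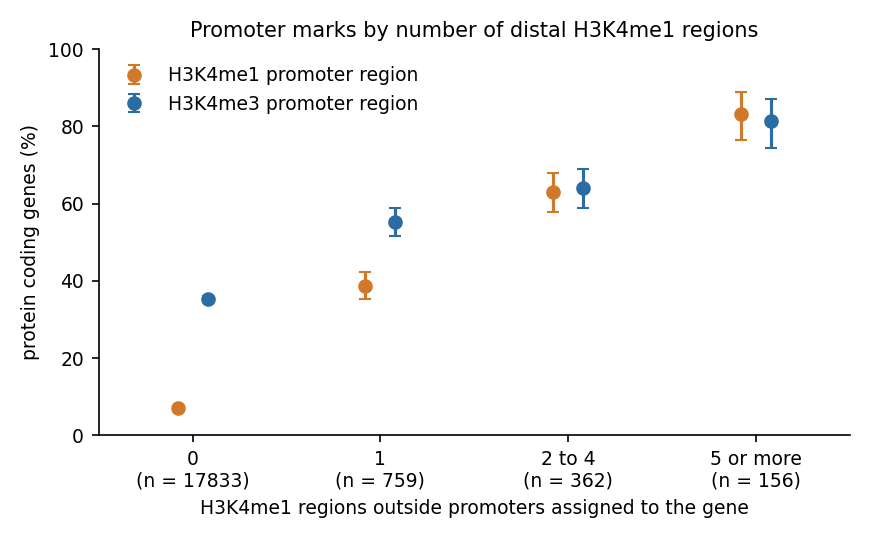
Percent of protein coding genes with an H3K4me1 (orange) or H3K4me3 (blue) promoter region, by the number of H3K4me1 regions outside promoters assigned to the gene, with exact binomial 95% intervals. Both shares are higher with more such regions, and reach 83.3% for H3K4me1 and 81.4% for H3K4me3 at 5 or more.

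The 8 genes with the most H3K4me1 regions outside promoters were BCAR3 (33 regions), TNS3 (27), PVT1 (24), DEFB115 (22), ARHGEF28 (21), ARID5B (21), PLXNA2 (20) and EFNA5 (19). BCAR3 and TNS3 code for adaptor proteins of cell adhesion signalling, ARHGEF28 for a guanine nucleotide exchange factor, PLXNA2 for a semaphorin receptor and EFNA5 for an ephrin. Of the 8, 6 had both marks at the promoter and EFNA5 had H3K4me3 alone, at rank 91. The BCAR3 regions spread over 280 kb (chromosome 1, 93558859 to 93838837), about the length of the gene, and the gene also had 10 H3K4me1 promoter regions and an H3K4me3 promoter region at rank 356. DEFB115, a defensin gene of 1.97 kb, had no promoter region of either mark, and the regions that the authors gave to it spread over 183 kb, far beyond the gene itself.

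H3K4me1 regions came in longer runs than H3K4me3 regions. A deposited column repeats the width of 2 kb a number of times for each region, which was read as the number of joined windows, though its meaning is not stated. It held more than 1 for 24.1% of H3K4me1 regions (23.3 to 25) and 17.5% of H3K4me3 regions (16.8 to 18.2), and at least 5 for 251 H3K4me1 and 35 H3K4me3 regions.

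Lists that the sorting did not use separated the kinds of gene in part. KDM1A had a promoter region at 1.00% of genes with both marks, 1.37% of genes with H3K4me1 alone and 1.58% of genes with H3K4me3 alone, with intervals that overlap. KDM1A regions overlapped 0.656% of H3K4me1 regions (0.505 to 0.837) and 0.336% of H3K4me3 regions (0.239 to 0.458). H3K9me3, a mark of silent chromatin, had a promoter region at 0.267% of genes with both (0.0728 to 0.682), 0.505% of genes with H3K4me1 alone and 1.5% of genes with H3K4me3 alone (1.22 to 1.82). It overlapped 2.81% of the H3K4me1 regions outside promoters and without H3K4me3, and 6.31% of the H3K4me3 regions outside promoters and without H3K4me1. At sites with both marks it overlapped 3 H3K4me1 and 3 H3K4me3 regions.

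With Osimertinib the kinds of promoter were also listed unequally. An H3K4me3 promoter region was listed with the drug at 75.8% of genes with both marks (73.5 to 77.9), 12.0% of genes with H3K4me1 alone (10.4 to 13.9) and 64.7% of genes with H3K4me3 alone (63.5 to 65.8). An H3K4me1 promoter region was listed with the drug at 25.6% of genes with both (23.4 to 27.8), 25.5% of genes with H3K4me1 alone (23.2 to 27.8) and 2.55% of genes with H3K4me3 alone (2.18 to 2.96). Vehicle H3K4me1 regions were overlapped by an H3K4me1 region of the drug list in 14.1% (12.4 to 15.8) where H3K4me3 overlapped them, 21.7% (20.2 to 23.2) at other promoters and 33.3% (32.0 to 34.6) outside promoters. The share over all vehicle H3K4me1 regions was 26.6% (25.7 to 27.5). Over all vehicle H3K4me3 regions, 59.6% (58.7 to 60.5) were overlapped by an H3K4me3 region of the drug list. H3K4me3 strength was higher at genes with both marks, and its part in these shares was not tested.

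The marks were also spread differently over chromosomes. Chromosome 19, which is dense in genes, held 4.55% of H3K4me1 and 12.8% of H3K4me3 regions (a difference of -8.25 points, -8.98 to -7.51). Chromosome X held 0.563% of H3K4me1 and 2.20% of H3K4me3 regions, and chromosome 6 2.39% of H3K4me1 and 4.92% of H3K4me3 regions. Chromosome 1 went the other way, with 14.4% of H3K4me1 and 9.90% of H3K4me3 regions, as did chromosome 20, with 5.66% and 3.10%, and chromosome 22, with 4.27% and 2.12%.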

How the data were processed

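Unedited PC9 cells given DMSO were profiled for H3K4me1 and H3K4me3, with 1 library per mark. Not given in the sources used here are the kind of binding assay, the peak caller with its threshold and control, the annotation tool, and how much Osimertinib was given for how long. The submitters' processing notes name Bowtie2 2.3.4, HISAT2 and featureCounts, with no assay given for each, and the genome GRCh38 (hg38). Each library was deposited as a list of annotated regions of 2 kb, and the read depth is unknown. The deposited signal is a height per region on a scale that is not stated, so it served only to rank and describe regions within a list. Other deposited columns, per the file headers, give annotation, assigned gene, signed distance to a start in bp and the joined windows, read from how often the width is repeated.

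Gene IDs were matched to symbols for 99.4% of H3K4me1 and 99.8% of H3K4me3 regions. Gene types and windows of 300 bases around starts came from RefSeq (GRCh38.p14). Chromosome Y was left out of the starts. Overlap meant at least 1 bp, and overlaps were checked against bedtools 2.31.1. Counting and overlap code was tested on simulated regions. Shares have Clopper-Pearson intervals and medians order-statistic intervals. Scripts ran in Python 3.11.15 with scipy 1.17.1, pandas 2.3.3 and numpy 2.4.6, and figures were drawn with matplotlib 3.10.9.

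The sorting of genes, the 22 gene lists, the alternatives and the naming rule were chosen with earlier results of these data known. The rule named 16 set genes, the 6 strongest genes of each kind, up to 4 genes per kind and list, the 8 genes with most H3K4me1 regions outside promoters and 3 promoters per kind for their sequence. The comparison of sequence was planned by gene and is given by start, since too few genes of 1 kind matched a window. A few genes under that rule were left out of the text. Alternatives were promoters within 1 kb, any assigned region, equal numbers of the strongest regions, the stronger 50% of each list, an overlap of 1000 bp, a gap of up to 1 kb, joined windows, protein coding genes and leaving out chromosome Y. Starts of protein coding genes alone were added after seeing the data.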

Additional observations from a re-analysis of the deposited data

How the results depend on the processing

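Of 69 alternative values of 14 results, 42 stayed within 1.5 times the count or within the interval of the value reported. The order of genes with both marks and with H3K4me1 alone (1499 and 1387) turned round with equal numbers of regions (1408 and 1478), in the stronger 50% of each list and with any assigned region (1932 and 2414), and the order of the overlap shares turned round with equal numbers. The difference in promoter share kept its sign in its 4 alternatives. Promoters within 1 kb alone gave promoter shares of 30.1% for H3K4me1 and 77.8% for H3K4me3 (difference -47.7 points), and starts under H3K4me1 alone then had a median CpG ratio of 0.562 and a median G and C content of 62.3%. The stronger 50% of each list gave 641 genes with both marks and 788 with H3K4me1 alone, overlap of 11.6% of H3K4me1 and 9.54% of H3K4me3 regions, a promoter share of 97.1% for H3K4me3 (difference -52.7 points), G and C content of 62.3% under H3K4me1 alone and 67.7% under H3K4me3 alone, and a CpG ratio of 0.878 under H3K4me3 alone. Equal numbers of the strongest regions gave overlap of 14.7% of H3K4me1 and 14.9% of H3K4me3 regions and a promoter share of 93.5% for H3K4me3 (difference -49.5 points). An overlap of at least 1000 bp left 11.9% of H3K4me1 and 9.96% of H3K4me3 regions, a gap of up to 1 kb gave 19.8% and 17.6%, and joining windows within 1 kb gave 14.9% for H3K4me3. Any assigned region raised the genes with H3K4me1 alone to 2414, and protein coding genes alone lowered them to 582. Starts of protein coding genes, added after seeing the data, had a median CpG ratio of 0.656 and a G and C content of 63.0% under H3K4me1 alone. Fewer regions or genes enter the stricter settings by construction, and the cause of the other shifts was not tested. No paired analysis was possible because each mark had 1 library. Intervals cover counting error and not the spread between cultures, which 1 library per mark cannot show.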
